A study of Mus musculus with 2 samples.

Results

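The mitochondrial ribosomal proteins were described across 2 stomach libraries through the 77 protein-coding genes whose mouse symbol is Mrpl or Mrps followed by a number and at most 1 letter. They are 77 of the 43346 mouse genes in the gene tables and 77 of the 21474 protein-coding ones, chosen by symbol and not by any measured value. Of the members, 48 carry an Mrpl symbol and 29 an Mrps symbol. By the subunit in which the protein sits, 50 belong to the large subunit and 26 to the small subunit, since the proteins of Mrps30 and Mrps18a are part of the large subunit. The remaining member, Mrps36, was first named as a ribosomal protein and is now assigned to the α-ketoglutarate dehydrogenase complex.

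The mitochondrial ribosome translates the few mRNAs encoded by mitochondrial DNA, all of which specify membrane subunits of the respiratory chain and ATP synthase. Its RNAs come from mitochondrial DNA, but each of its proteins is encoded in the nucleus, made in the cytosol and imported. Some of these proteins descend from bacterial ribosomal proteins and others are found only in mitochondrial ribosomes, where they take the place of lost rRNA or form new contacts. In the stomach, the acid-secreting parietal cells are known for their dense mitochondria.

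Both libraries were made from stomachs of C57BL/6J mice aged 8 weeks, from pools of males and females, with no treatment named in the labels. RNA over 200 nt that was polyadenylated and depleted of rRNA was sequenced as stranded read pairs of 76 nt, with spike-in RNAs added. The libraries, replicate 2 and replicate 1, form 1 group. They have their own tissue samples but share a donor record, so how far they are independent animals is not known and their spread may be partly technical.

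The tables held 62452468 expected counts in replicate 2 and 52363597 in replicate 1. Clps and Pgc, which encode colipase and pepsinogen C, took 42.7% of all TPM in replicate 2 and 29.6% in replicate 1. TPM is a count per transcript length scaled to a fixed total in each library, so those genes lower the TPM of all others by different amounts. Each listed marker of chief, pit and neck, endocrine and muscle cells had a mean TPM of at least 5, and 2 of 7 pancreas acinar markers reached TPM 1 in both libraries. Of the hepatocyte list, Alb stood at 0.610 TPM in replicate 2 and 0.0800 TPM in replicate 1, and Apoa1 at 460 TPM in replicate 2 and 683 TPM in replicate 1. The parietal cell markers summed to 2742 TPM in replicate 2 and 5027 TPM in replicate 1, with 4 of 6 at TPM 1 or more in both libraries and none at 0. The 4 red blood cell markers summed to 210 TPM in replicate 2 and 613 TPM in replicate 1.

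Nearly every member was expressed. A TPM of 1 or more in both libraries was reached by 71 of 77 members (92.2%), against 48.9% of all protein-coding genes. A TPM of 10 or more in both was reached by 41 members. The median member had 13.4 TPM in replicate 2 and 14.4 TPM in replicate 1, while the median of all protein-coding genes was 1.19 TPM in replicate 2 and 1.04 TPM in replicate 1. Together the members held 2920 TPM in replicate 2 and 3928 TPM in replicate 1, a mean of 3424 ± 713 (SD, n = 2). With those 2 abundant genes removed before scaling, the sums were 5100 TPM in replicate 2 and 5578 TPM in replicate 1. As a share of expected counts the members took 0.189% in replicate 2 and 0.271% in replicate 1.

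**Figure D1:**
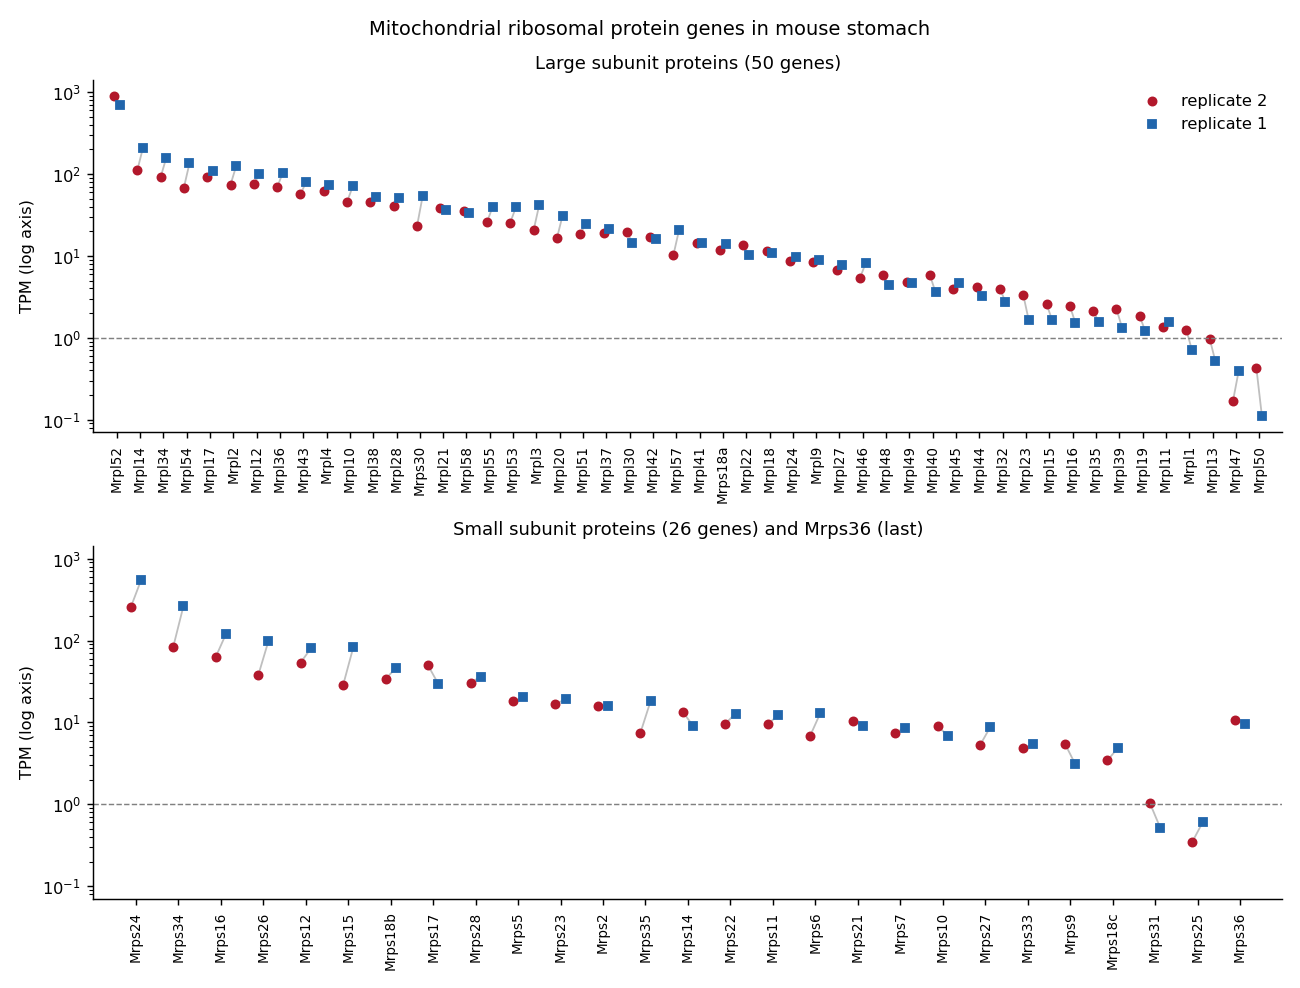
TPM of each of the 77 members on a log axis, with circles for replicate 2, squares for replicate 1 and a line joining both; the upper panel holds the large subunit proteins and the lower panel the small subunit proteins, each ordered by mean TPM, with Mrps36 last. Levels run from Mrpl52 at 902 TPM in replicate 2 and 701 TPM in replicate 1 down to Mrpl50, and 6 members lie under the dashed line of 1 TPM in at least 1 library.

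The levels of these genes, whose proteins join in fixed numbers, spanned several orders of magnitude. The 90th percentile of mean TPM was 56.3 times the 10th percentile. Mrpl52, which encodes a large subunit protein with no bacterial homologue, was the highest at 902 TPM in replicate 2 and 701 TPM in replicate 1. This 1 gene held 30.9% of the members' summed TPM in replicate 2 and 17.8% in replicate 1, and the top 5 genes held 48.4% of the summed mean. Its mean TPM was 2968 times that of Mrpl50. Its transcript is short, at 412 bases, and its expected count of 13664 in replicate 2 and 8355 in replicate 1 stood beside that of Mrps24, which had 13306 in replicate 2 and 22890 in replicate 1. Mrpl52 was thus the higher of the pair by TPM in both libraries, but by count in replicate 2 only. In the main coding transcript of Mrpl52, reads across introns 1 and 3 numbered 20791 and 25619, both libraries pooled. Introns 2 and 4 had 139 and 104. How much Mrpl52 RNA follows that 4-intron transcript was not tested.

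Among large subunit genes, Mrpl14 and Mrpl34 came next by mean TPM, and both encode proteins with bacterial homologues. Mrpl14, whose protein lies at the interface with the small subunit, had 110 TPM in replicate 2 and 206 TPM in replicate 1. Mrpl34, a small protein of the large subunit core, had 90.9 TPM in replicate 2 and 156 TPM in replicate 1. Mrpl17, at the polypeptide exit, had 90.8 TPM in replicate 2 and 110 TPM in replicate 1. All 3 were lower in replicate 2. Mrpl54, a mitochondria-specific protein, had 68.2 TPM in replicate 2 and 135 TPM in replicate 1. Mrpl2, the homologue of the bacterial protein beside the peptidyl transferase centre, had 74.0 TPM in replicate 2 and 124 TPM in replicate 1. Much of the TPM of Mrpl54 and Mrpl2 lay in transcripts not annotated as coding. Coding ones held 39.2% in replicate 2 and 29.9% in replicate 1 for Mrpl54. For Mrpl2 they held 26.8% in replicate 2 and 16.7% in replicate 1.

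Small subunit genes showed the same kind of spread. Mrps24, whose protein lines the mRNA entry, had 256 TPM in replicate 2 and 543 TPM in replicate 1. Mrps34, a mitochondria-specific protein, had 84.0 TPM in replicate 2 and 263 TPM in replicate 1. These 2 were the highest of the small subunit genes in both libraries, and both were at less in replicate 2. The small subunit median was 12 TPM in replicate 2 and 14.5 TPM in replicate 1, and the large subunit median 14.1 TPM in replicate 2 and 14.5 TPM in replicate 1. The ratio of large over small subunit medians was thus 1.18 in replicate 2 and 0.999 in replicate 1, so no order of the subunits held in both libraries.

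The 6 members that did not reach 1 TPM in both libraries were 4 large and 2 small subunit genes, near the split of all members. Mrpl50, a mitochondria-specific protein, had 0.430 TPM in replicate 2 and 0.110 TPM in replicate 1, from 57 expected counts in replicate 2 and 12 in replicate 1. Mrpl47, a homologue of the bacterial protein at the exit tunnel, had 0.170 TPM in replicate 2 and 0.390 TPM in replicate 1. Mrps25, a mitochondria-specific protein of the small subunit, had 0.35 TPM in replicate 2 and 0.6 TPM in replicate 1. Mrpl50 was higher in replicate 2, and the other two were lower. Mrpl13 had 0.970 TPM in replicate 2 and 0.520 TPM in replicate 1. Mrps31 had 1.03 TPM in replicate 2 and 0.520 TPM in replicate 1. Mrpl1, the protein of the L1 stalk through which deacylated tRNA leaves, had 1.25 TPM in replicate 2 and 0.7 TPM in replicate 1. These 3 were higher in replicate 2. Just above them, Mrpl11, at the base of the factor-binding stalk, had 1.36 TPM in replicate 2 and 1.57 TPM in replicate 1. Mrpl19 had 1.82 TPM in replicate 2 and 1.2 TPM in replicate 1.

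Levels overlapped between proteins of different origin and place in the ribosome. The 29 large subunit genes with bacterial homologues had a median mean TPM of 12, and the 21 mitochondria-specific ones 15.6. In the small subunit, the 16 genes with bacterial homologues had a median of 13.6, and the 10 mitochondria-specific ones 12. Each structural neighbourhood mixed high and low genes. In the stalk that recruits translation factors, Mrpl12 had 75.6 TPM in replicate 2 and 99.5 TPM in replicate 1, whereas Mrpl11 lay at a mean of 1.47 TPM. The 7 genes of the exit tunnel ran from 0.280 to 100 mean TPM. The 7 genes of the mRNA path and decoding site ran from 4.15 to 399, and those 7 of the central protuberance from 4.70 to 48.7.

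The paralogs of bacterial S18 also stood apart in level, although their proteins sit in different places. Mrps18b, in the small subunit, had 34.0 TPM in replicate 2 and 45.9 TPM in replicate 1. Mrps18a, in the large subunit, had 11.9 TPM in replicate 2 and 13.8 TPM in replicate 1. Mrps18c, which occupies the position of bacterial S18, had 3.44 TPM in replicate 2 and 4.85 TPM in replicate 1. The 3 levels did not overlap between genes, and in both libraries the order was the same. Mrpl58, a peptidyl-tRNA hydrolase built into the large subunit, had 35.0 TPM in replicate 2 and 33.8 TPM in replicate 1. Mrps36 had 10.8 TPM in replicate 2 and 9.49 TPM in replicate 1.

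Among members with a mean TPM of 5 or more, the 4 widest differences between the libraries were in small subunit genes, all lower in replicate 2. Differences are log2 ratios of scaled counts (CPM), replicate 2 over replicate 1, after TMM scaling and with a prior count of 2; with 1 library on each side there is no test, and each interval is an exact 95% one that covers counting error only. Over all members, 10 (13.0%) were past 2-fold, against 13.8% of all protein-coding genes, a share near the background. Of these, 7 were lower in replicate 2 (9.09%, against 6.04%) and 3 higher (3.90%, against 7.72%). On log2(TPM + 1), 6 were past 2-fold and all 6 were lower. At a mean TPM of 5 or more, 6.63% of the 6837 protein-coding genes were past 2-fold in either direction. Among the 57 members there, 7 (12.3%) were past 2-fold lower, against 5.88% of those genes, and 0 were past 2-fold higher, against 0.746%. In all, 43 of the 57 (75.4%) had a ratio below 0, against 62.7% of those genes. Their median log2 ratio was -0.34, against -0.13 for those genes, and the SD was 0.53 over the 57 members and 0.52 over those genes. In whole tissue, fewer cells of a type and less RNA per cell cannot be told apart.

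**Figure D2:**
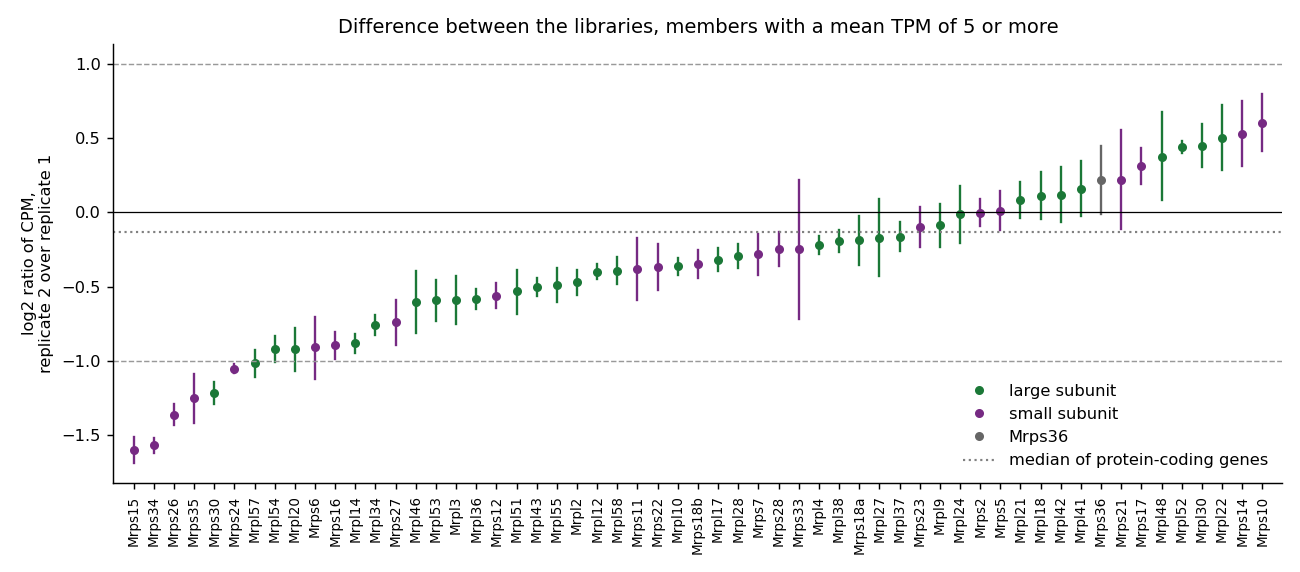
Log2 ratio of CPM, replicate 2 over replicate 1, for the 57 members with a mean TPM of 5 or more, ordered by ratio and coloured by subunit, with 95% counting intervals as bars; dashed lines mark 2-fold and the dotted line the protein-coding median. The 7 members at or past 2-fold are all on the lower side, from Mrps15 at -1.60 to Mrpl57 at -1.01, and the highest is Mrps10 at 0.60.

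Of those 7, 5 encode small subunit proteins. Mrps15, a homologue of bacterial S15, had 28.6 TPM in replicate 2 and 82.8 TPM in replicate 1, a log2 ratio of -1.60 (interval -1.69 to -1.51). Mrps34 had a ratio of -1.57 (-1.62 to -1.52). Mrps26, a mitochondria-specific protein, had 37.4 TPM in replicate 2 and 98.1 TPM in replicate 1, a ratio of -1.36 (-1.43 to -1.29). For Mrps15, Mrps34 and Mrps26, the whole counting interval lay past 2-fold. These ratios are over all transcripts of a gene, coding or not. In Mrps15, transcripts annotated as coding held 82.1% of expected counts in replicate 2 and 40.7% in replicate 1, so its ratio is not that of its coding transcripts. In Mrps26 they held 4.63% in replicate 2 and 2.43% in replicate 1. Mrps35, also mitochondria-specific, had 7.44 TPM in replicate 2 and 18.2 TPM in replicate 1, a ratio of -1.25. Mrps24 had a ratio of -1.05 (-1.08 to -1.02). The large subunit members among the 7 were Mrps30, with 23.1 TPM in replicate 2 and 53.4 TPM in replicate 1 and a ratio of -1.21, and Mrpl57, with 10.4 TPM in replicate 2 and 20.8 TPM in replicate 1 and a ratio of -1.01. The interval of Mrpl57 reached -0.92, so counting error alone leaves it on either side of 2-fold. By median, the subunits were alike: -0.34 over 34 large subunit genes and -0.35 over 22 small subunit genes.

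On the other side, no member of this level reached 2-fold. The highest ratios were those of Mrps10 (0.60), Mrps14 (0.53), Mrpl22 (0.50), Mrpl30 (0.45), Mrpl52 (0.44) and Mrpl48 (0.37). Mrps10, a homologue of bacterial S10, had 8.99 TPM in replicate 2 and 6.89 TPM in replicate 1. Mrpl22, at the exit tunnel, had 13.7 TPM in replicate 2 and 10.3 TPM in replicate 1. Among the 20 members under a mean TPM of 5, 16 were higher in replicate 2, where 63.4% of all protein-coding genes above 0 and under that level were higher. With a mean TPM of 1 to under 5 these were 12 of 14 members, against 62.7% of protein-coding genes. The 3 members past 2-fold higher were Mrpl50 (1.83), Mrpl13 (1.26) and Mrpl23 (1.02). Their counting intervals were 1.06 to 3.01, 0.67 to 2.00 and 0.55 to 1.57. Counting error alone thus leaves Mrpl13 and Mrpl23 on either side of 2-fold. For Mrpl58 and Mrps18c the count ratio and the TPM pointed different ways: Mrpl58 had a count ratio of -0.39 but more TPM in replicate 2, and Mrps18c had a count ratio of 0.16 but less TPM in replicate 2. In both genes the mix of transcripts, and with it the effective length, differed between the libraries.

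Several cell type marker sums were also lower in replicate 2, as the members' sum was. All are plain sums of TPM, and the larger share of Clps and Pgc in replicate 2 lowers the TPM of other genes there. Besides the parietal and red blood cell markers given above, smooth muscle markers summed to 3742 TPM in replicate 2 and 6170 TPM in replicate 1. Forestomach squamous markers summed to 2412 TPM in replicate 2 and 3959 TPM in replicate 1, and gastric endocrine markers to 2702 TPM in replicate 2 and 3929 TPM in replicate 1. Some genes of these lists had a count ratio above 0. They were Myh11 of smooth muscle (0.86), Krt5 (0.42) and Krt14 (0.09) of the forestomach, and Slc26a7 of parietal cells (0.56). Chief cell markers went the other way, with a median log2 ratio of 0.55 and 5 of 5 genes higher in replicate 2. The part of any of these in the members' ratios was not tested. Scaling by TMM, DESeq2 size factors, library size or spike-in totals left the median over all 77 members between -0.26 and -0.18.

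The level of a member went with the GC content of its coding sequence. Coding GC ranged from 41.6% in Mrpl1 to 65.6% in Mrpl34, with a median of 53.6%. Across the 77 genes, the Spearman correlation between coding GC and mean TPM was 0.71, with 0.69 in replicate 2 and 0.71 in replicate 1. It was 0.66 over the 71 members with a mean TPM of 1 or more, and 0.31 over 10965 other protein-coding genes at that level. These are descriptions across genes, which share the libraries and are not independent. Members under 50% GC (19 genes) had a median mean TPM of 3.36, those from 50% to 55% (27 genes) 11.2, those from 55% to 60% (22 genes) 36.3 and those of 60% or more (9 genes) 68.0. The other genes, all at a mean TPM of 1 or more, had medians of 3.62, 7.51, 12.4 and 14.2 in the same classes. The members had no such minimum, and reached down to a mean TPM of 0.270 under 50% GC and 0.475 from 50% to 55%. Those classes are therefore not compared on like terms. From 55% GC upward, where no member lay under a mean TPM of 2.5, the members' medians were above those of the other genes. Length went with level less closely, with a Spearman correlation of -0.21 between coding length and mean TPM.

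**Figure D3:**
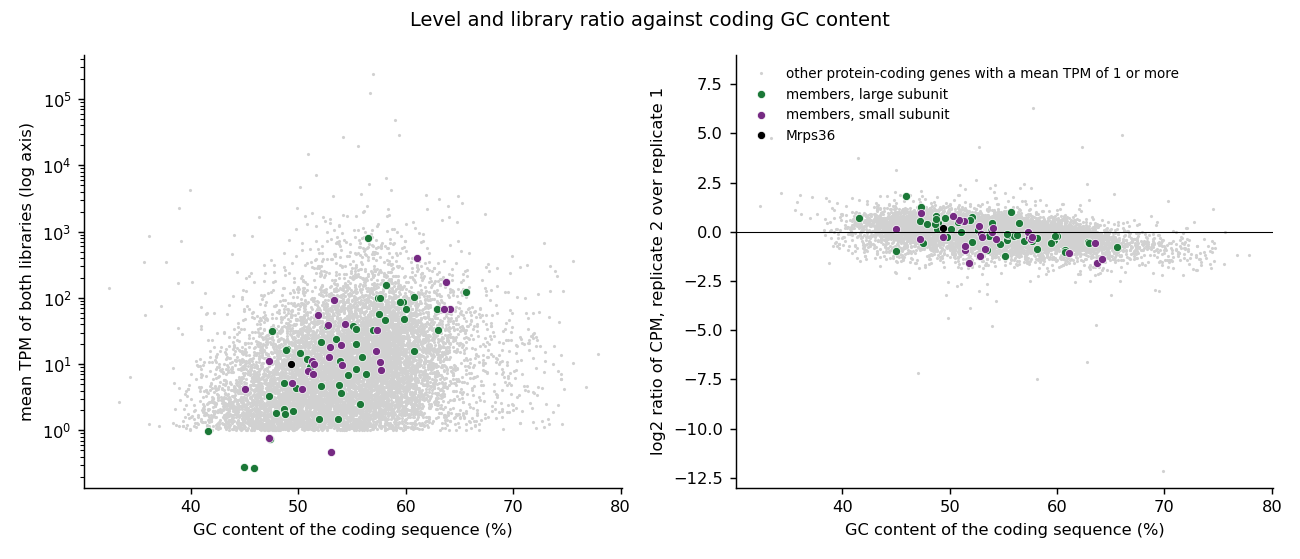
Mean TPM on a log axis (left) and log2 ratio of CPM, replicate 2 over replicate 1 (right), against the GC content of the coding sequence in percent, for the 77 members (coloured) and other protein-coding genes at 1 TPM or more on average (grey). Members rise in level with GC (Spearman correlation 0.71) and their ratio falls with it (Spearman correlation -0.55).

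The ratio between libraries also went with GC. The Spearman correlation between coding GC and the log2 ratio was -0.55 over the members and -0.40 over the other genes. The median ratio was 0.42 in members under 50% GC, 0.01 from 50% to 55%, -0.29 from 55% to 60% and -0.92 at 60% or more. For other genes the medians were 0.23, 0.07, -0.12 and -0.41. The 9 members of 60% GC or more, among them Mrps34, Mrps26, Mrps24, Mrpl54 and Mrpl57, were all below 0, from -1.57 to -0.50. Mrps15 and Mrps35 were past 2-fold at a coding GC of 51.8% and 52.8%. The part of base composition in the ratios and levels was not tested.

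Genes of other multi-protein complexes showed the same relation. The Spearman correlation between coding GC and level was 0.70 over 79 cytosolic ribosomal protein genes and 0.69 over 36 nuclear genes of respiratory complex I. The 90th over the 10th percentile of mean TPM was 158 in the first and 35.2 in the second, with the members at 56.3 between them. The median log2 ratio at a mean TPM of 5 or more was -0.34 for the members, 0.07 for 72 cytosolic ribosomal protein genes and -0.36 for 34 complex I genes.

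Reads across splice junctions gave a view of the members along their length. The junction table pools both libraries, so it gives no value per library. Introns of the main coding transcript could be tied to it for 70 members, and 287 of their 317 introns had reads, 149780 in all. Reads per intron went with TPM (Spearman correlation 0.84 over 70 genes). In the 54 members with at least 3 introns and 50 reads, the first intron held a median of 39.1% of the reads, where an even spread would give 20%. In 8571 other genes it held 8.92%, where an even spread would give 11.1%. The first intron held over 50% of the reads in 22 of the 54 members (40.7%), against 13.9% of the other genes. Members have fewer introns, with a median of 4, against 8 in other expressed genes.

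Mrps22, a mitochondria-specific protein of the small subunit, was an extreme case: of its reads, 1301 crossed intron 1, 48 crossed intron 2, and introns 3 to 7 had 0, 1, 1, 3 and 0. Mrps15 had 4694 reads at intron 1, 1183 at intron 2 and 10 at intron 3, with 0 to 2 at each later intron. In Mrpl38, a protein of the central protuberance, the first intron had 459 reads and intron 7 had 687. Mrpl12 had 702, 178, 566 and 351 reads at introns 1 to 4. Coverage by junction reads was thus near the 5′ end alone in the first pair of genes and spread along Mrpl38 and Mrpl12. To show the composition of the exon sequence around well-covered and uncovered junctions, 5 coding stretches of 60 bases are given. Each joins the 30 bases before and the 30 bases after an intron, read from GENCODE M21 transcripts on mm10, with G and C in capitals. For Mrps22 the introns are chr9:98598299-98601472 (intron 1) and chr9:98594814-98596819 (intron 3), minus strand. For Mrps15 they are chr4:126047200-126047433 (intron 1) and chr4:126050529-126051324 (intron 4), plus strand. For Mrpl38 the intron is chr11:116132557-116132742 (intron 7), minus strand.
Mrps22 intron 1: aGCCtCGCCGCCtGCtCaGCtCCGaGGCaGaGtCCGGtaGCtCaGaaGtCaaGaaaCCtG
Mrps22 intron 3: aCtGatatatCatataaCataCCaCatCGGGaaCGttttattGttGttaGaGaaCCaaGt
Mrps15 intron 1: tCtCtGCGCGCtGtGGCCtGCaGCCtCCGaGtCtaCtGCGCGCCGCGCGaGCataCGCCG
Mrps15 intron 4: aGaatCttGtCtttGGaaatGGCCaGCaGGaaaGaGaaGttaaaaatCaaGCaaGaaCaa
Mrpl38 intron 7: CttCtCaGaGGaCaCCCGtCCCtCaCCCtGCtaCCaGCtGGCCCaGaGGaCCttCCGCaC
The covered stretches held 61.7% GC in Mrps22, 71.7% in Mrps15 and 65.0% in Mrpl38, and the uncovered ones shown held 33.3% in Mrps22 and 36.7% in Mrps15. Those shown are the lowest in GC of the introns with 0 reads: intron 7 of Mrps22 and intron 5 of Mrps15 also had 0 reads, at 48.3% and 46.7% GC.

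**Figure D4:**
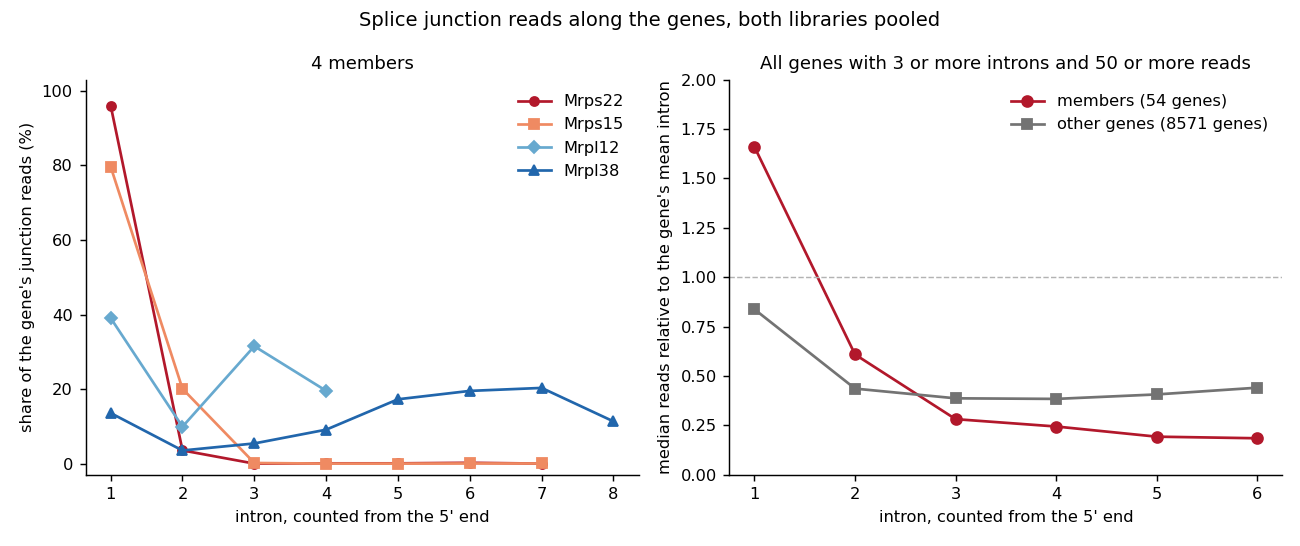
Share of a gene's junction reads at each intron in percent for Mrps22, Mrps15, Mrpl12 and Mrpl38 (left), and the median over genes of an intron's reads relative to the mean intron of its gene (right), both against intron number from the 5′ end. Members start at 1.66 at intron 1 and reach 0.185 at intron 6, while other genes start at 0.838 and reach 0.441.

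The same held across members. Relative to the mean intron of its gene, the median intron with under 45% GC in the 100 exon bases on each side had 0.110 of the reads. The medians were 0.122 from 45% to 50%, 0.461 from 50% to 55%, 1.07 from 55% to 60% and 1.37 at 60% or more. In other genes these medians were 0.0204, 0.198, 0.512, 0.830 and 1.04. Within a gene, the Spearman correlation between flanking GC and reads had a median of 0.60 over the 54 members and was above 0 in 48 of them (88.9%). In the other genes the median was 0.47, and 84.4% were above 0. Position and GC move together here: median flanking GC in members was 59.0% at intron 1 and 47.0% at intron 6, against 58.7% and 52.5% in other genes. The part of each in the spread of reads was not tested. In Mrpl21, a homologue of bacterial L21, intron 2 held 93.2% of the reads and intron 1 3.91%, so the first intron does not lead in every gene. These introns are those of the main coding transcript. Transcripts annotated as coding held 5.17% of Mrpl21 expected counts in replicate 2 and 9.26% in replicate 1. The part of the mix of transcripts in the spread of reads was not tested either.

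For 16 of 77 members (20.8%) the most abundant transcript was not annotated as protein-coding, against 14.4% of 10883 other expressed genes. These annotations are those of GENCODE M21, a later release than the gene models behind the quantification. In 9 of the 16, the transcript is one with a retained intron: Mrpl54, Mrps26, Mrpl21, Mrpl58, Mrpl51, Mrps5, Mrps33, Mrpl44 and Mrpl39. In 5 it is one marked for nonsense-mediated decay: Mrpl3, Mrps14, Mrps11, Mrpl48 and Mrpl32. For Mrpl32 it was the only transcript quantified, so no other could lead. In Mrpl2 and Mrpl15 it is a processed transcript with no coding sequence. Transcripts annotated as coding still held 85.8% of the members' summed TPM in replicate 2 and 80.7% in replicate 1. That share rests in part on Mrpl52, with 30.9% of the sum in replicate 2 and 17.8% in replicate 1. Mrpl52 counts wholly as coding because its only quantified transcript is so annotated. In all, 19 members had a single quantified transcript, which fixes their coding share.

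Some of these shares were nearly complete. In Mrps26 the retained-intron transcript, of 1057 bases, held 99.0% of the gene's TPM in replicate 2 and 99.5% in replicate 1. In Mrpl3, a large subunit core protein, a transcript of 457 bases marked for decay held 89.5% in replicate 2 and 96.7% in replicate 1. The full-length Mrpl3 introns had few reads, 54 over 9 introns. In Mrpl2 a 434-base transcript held 73.2% of TPM in replicate 2 and 83.3% in replicate 1, although coding transcripts held 55.9% of its expected counts in replicate 2 and 42.0% in replicate 1. Short models carry more TPM per read, so a TPM share and a count share can differ this much.

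In 7 members the most abundant transcript was not the same in both libraries: Mrps15, Mrps18b, Mrpl55, Mrps21, Mrpl24, Mrps18c and Mrpl15. In Mrps15 the coding transcript held 83.8% of TPM in replicate 2 and 43.6% in replicate 1, beside the lower level of the whole gene in replicate 2. In Mrps18c a 460-base coding transcript held 41.6% in replicate 2 and 85.6% in replicate 1. In Mrpl55, Mrps18c and Mrpl24 nearly all TPM lay in coding transcripts in both libraries, so there the change was among coding forms.

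Reads shared with other genes mattered for few members. The posterior SD of the count, a value deposited with each count, was under 1% in both libraries for 74 members and at most 9.68%, in Mrpl23. Mrpl23, the large subunit protein at the exit tunnel, had 3.37 TPM in replicate 2 and 1.63 TPM in replicate 1. Its processed pseudogene Mrpl23-ps1 (mm10 chr2:74591330-74591909, minus strand) had 36.7 TPM in replicate 2 and 33.5 TPM in replicate 1. The pseudogene was the higher of the pair in both libraries, with 89.3% of the pair's counts in replicate 2 and 94.0% in replicate 1. The coding sequence of Mrpl23 is identical to the pseudogene over all 438 bases, so coding reads cannot tell them apart and the level of Mrpl23 is uncertain. The 4 introns of Mrpl23, which the pseudogene lacks, had 22 junction reads in all. The first 60 coding bases, the same in both, are shown with no capitals since no base differs.
Mrpl23 and Mrpl23-ps1: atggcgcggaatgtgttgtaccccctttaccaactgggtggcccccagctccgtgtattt

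A further 12 members overlap another gene on the same strand. Mrps34 overlaps Nme3, which had 23.4 TPM in replicate 2 and 26 TPM in replicate 1. Mrps24 overlaps Urgcp, with 7.99 TPM in replicate 2 and 8.49 TPM in replicate 1. Both neighbours were well below the member, and the posterior SD of the member's count was under 1% in either case.

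Many members start beside a gene on the other strand. A protein-coding gene that starts within 1 kb and points away was found for 18 of 77 members (23.4%), against 9.09% of 10975 other expressed genes. The median distance between the starts was 82 bases. By mean TPM, the member was the higher of the pair in 15 of 18. Partners were taken at any level, and the same share was not computed for the other genes. The count therefore does not set these pairs apart from those of other genes. Mrps12, the decoding site protein, had 53.7 TPM in replicate 2 and 80.2 TPM in replicate 1, and its partner Sars2, the mitochondrial seryl-tRNA synthetase, 14.3 TPM in replicate 2 and 14.0 TPM in replicate 1. Mrps34 was paired with Eme2, at 11.6 TPM in replicate 2 and 15.3 TPM in replicate 1. The widest gap the other way was at Mrpl49, with 4.81 TPM in replicate 2 and 4.72 TPM in replicate 1, whose partner Fau, which encodes a cytosolic ribosomal protein as a ubiquitin-like fusion, had 679 TPM in replicate 2 and 673 TPM in replicate 1. Other pairs were close, such as Mrpl51 and Ncapd2 with 21.7 and 21.5 mean TPM, so the gap between the 2 genes of a pair varied.

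Promoters of nuclear genes for mitochondrial proteins are known for binding NRF1, GABP (an ETS family factor) and YY1. RefSeq promoters on GRCm38.p6, 250 bases before to 50 bases after the start, were matched for 68 members. Both strands were searched, and 1 stretch could count for more than 1 motif. The NRF1 letters GCGCA and GCGC with 1 base between them were found in 13 of 68 members (19.1%), in 9.94% of 8553 other expressed genes and in 6.91% of all 16522 promoters. The ETS letters CCGGAAG were found in 23 (33.8%), against 17.5% of other expressed genes and 12.3% of all. The YY1 letters AANATGGCG, which contain the ATGGCG of many coding starts, were found in 11 (16.2%), against 5.02% of other expressed genes and 3.47% of all. By contrast, CCAAT was found in 38.2% of members and 37.4% of other expressed genes, and the GC box GGGCGG in 50% of members and 66.0% of other expressed genes. TATAAA was found in 5.88% of members and 7.19% of other expressed genes. Median mean TPM was 21.7 in the 23 members with the ETS letters and 9.99 in the 45 without. For the NRF1 letters it was 9.77 in the 13 with and 12.8 in the 55 without. For CCAAT it was 18.2 in the 26 with and 11.045 in the 42 without. The YY1 letters gave 16.4 in the 11 with and 11.3 in the 57 without. TATAAA gave 23.2 in the 4 with and 12.4 in the 64 without. The GC box gave 13.4 in the 34 with and 12.4 in the 34 without. A higher median with the letters was thus not particular to ETS.

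The 150 bases before the start are shown for 5 abundant members, with the NRF1, ETS or YY1 letters in capitals in either orientation: Mrpl52 (chr14:54426759-54426908, plus strand, ETS), Mrpl17 (chr7:105811088-105811237, minus strand, NRF1), Mrpl12 (chr11:120484487-120484636, plus strand, NRF1), Mrpl43 (chr19:45006443-45006592, minus strand, 2 ETS matches) and Mrpl36 (chr13:73330859-73331008, plus strand, YY1).
Mrpl52: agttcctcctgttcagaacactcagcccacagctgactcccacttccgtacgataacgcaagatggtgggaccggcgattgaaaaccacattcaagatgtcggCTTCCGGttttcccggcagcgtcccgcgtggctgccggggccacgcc
Mrpl17: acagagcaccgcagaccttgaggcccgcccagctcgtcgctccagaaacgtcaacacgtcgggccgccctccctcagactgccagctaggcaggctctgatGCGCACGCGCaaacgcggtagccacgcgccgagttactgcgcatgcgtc
Mrpl12: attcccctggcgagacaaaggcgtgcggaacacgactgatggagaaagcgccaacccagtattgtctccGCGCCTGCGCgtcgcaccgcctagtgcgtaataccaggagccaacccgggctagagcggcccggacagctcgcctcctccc
Mrpl43: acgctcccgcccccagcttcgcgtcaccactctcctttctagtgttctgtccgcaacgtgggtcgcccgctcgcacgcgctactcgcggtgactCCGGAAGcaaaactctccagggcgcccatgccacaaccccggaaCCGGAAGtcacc
Mrpl36: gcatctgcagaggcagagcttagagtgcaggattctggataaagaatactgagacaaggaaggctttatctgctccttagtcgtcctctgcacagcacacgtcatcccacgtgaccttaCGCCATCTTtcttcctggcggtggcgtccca
In the last sequence the capitals read the YY1 letters on the opposite strand. A match describes letters and not a bound site. All 5 promoters shown hold a match, so they do not stand for abundant members at large. Mrps24 and Mrpl14, higher in mean TPM than each of these but Mrpl52, had no match in their 150 bases.

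The 5 mitochondrial ribosomal protein genes with other symbols ran from 0.465 to 124 mean TPM, within the range of the members. Aurkaip1, a small subunit protein, had 96.5 TPM in replicate 2 and 152 TPM in replicate 1. Gadd45gip1, a large subunit protein, had 18.5 TPM in replicate 2 and 105 TPM in replicate 1, a log2 ratio of -2.52 and further from 0 than that of any member. Dap3, the GTP-binding protein of the small subunit, had 7.61 TPM in replicate 2 and 11.6 TPM in replicate 1. Ptcd3 was the lowest of these 5 genes, at 0.530 TPM in replicate 2 and 0.4 TPM in replicate 1.

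Of the factors that build the ribosome, 20 of 25 had a TPM of 1 or more in both libraries; 3 of 25 (Malsu1, Mpv17l2 and Grsf1) were past 2-fold lower in replicate 2, against 6.04% of all protein-coding genes, and 3 of 25 were past 2-fold higher, against 7.72%. Those higher were Gtpbp10 (2.38), Tfb1m (2.14) and Fastkd2 (1.35), all under a mean TPM of 1. Mterf3 had 100 TPM in replicate 2 and 136 TPM in replicate 1, from 379 expected counts in replicate 2 and 228 in replicate 1. The count ratio of Mterf3 was 0.46, so count and TPM pointed different ways, and its high TPM rests on few counts. Mpv17l2 had 70.9 TPM in replicate 2 and 143 TPM in replicate 1, with a log2 ratio interval of -1.06 to -0.94 that reaches both sides of 2-fold. Malsu1, which binds Mrpl14 and keeps the subunits apart during assembly, had 11.8 TPM in replicate 2 and 54.7 TPM in replicate 1, a ratio of -2.11. Tfb1m, the rRNA dimethyltransferase, was the lowest at 0.230 TPM in replicate 2 and 0.0300 TPM in replicate 1.

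**Figure D5:**
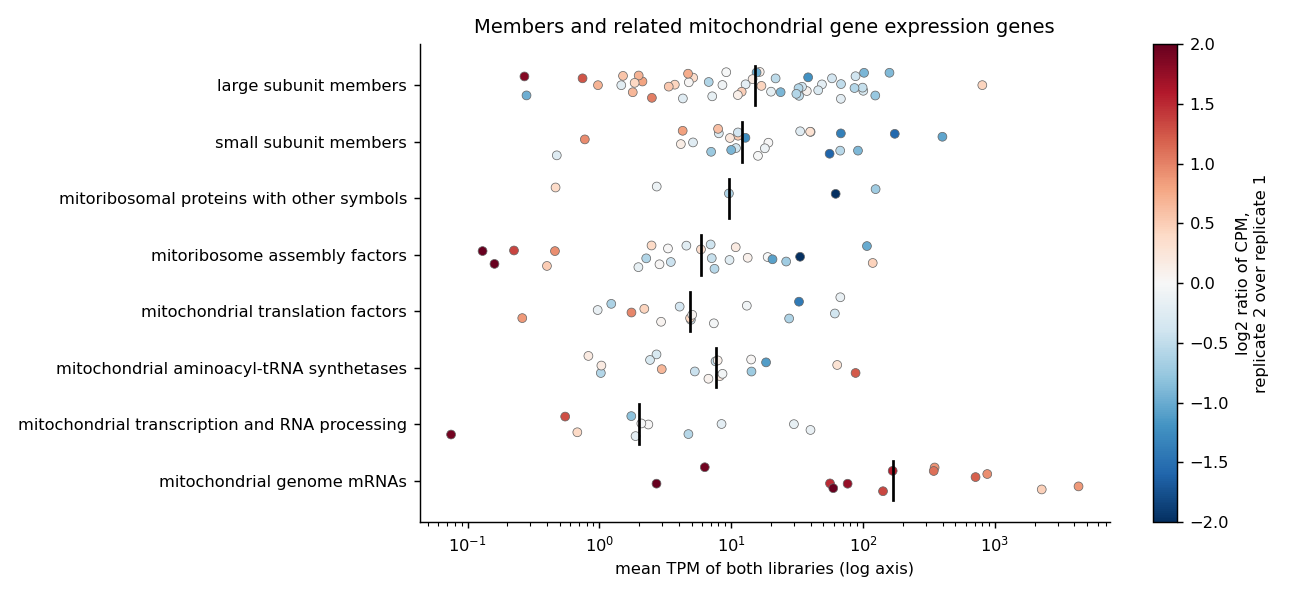
Mean TPM of both libraries on a log axis for the members by subunit and for the genes of 6 related lists, 1 point a gene, coloured by the log2 ratio of replicate 2 over replicate 1, with colours held at 2 beyond that ratio and a bar at each median; 1 gene listed at 0 in both libraries is not drawn. The mitochondrial genome mRNAs are all on the red side, higher in replicate 2, while most abundant members other than Mrpl52 are blue.

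Translation factors had 13 of 16 genes at TPM 1 or more in both libraries. Tufm, the elongation factor Tu, had 64.1 TPM in replicate 2 and 70.2 TPM in replicate 1. Oxa1l, the membrane insertase that receives the new proteins, had 53.1 TPM in replicate 2 and 68.9 TPM in replicate 1. Pdf, the deformylase, had 17.9 TPM in replicate 2 and 47.4 TPM in replicate 1, a ratio of -1.41. Mtrf1, a release factor homologue, was the lowest at 0.340 TPM in replicate 2 and 0.180 TPM in replicate 1. Among the 17 synthetases, 15 reached TPM 1 in both libraries. Lars2, the leucyl-tRNA synthetase, had 123 TPM in replicate 2 and 52.0 TPM in replicate 1. Vars2, the valyl-tRNA synthetase, had 64.1 TPM in replicate 2 and 63.0 TPM in replicate 1. Yars2, for tyrosine, had 11.5 TPM in replicate 2 and 25.3 TPM in replicate 1, and Wars2, for tryptophan, was the lowest at 0.650 TPM in replicate 2 and 1 TPM in replicate 1. Of 12 transcription and RNA processing genes, 8 reached TPM 1 in both libraries, led by Hsd17b10, a subunit of mitochondrial RNase P, with 37.7 TPM in replicate 2 and 42.0 TPM in replicate 1. Polrmt, the mitochondrial RNA polymerase, had 28.3 TPM in replicate 2 and 31.4 TPM in replicate 1, and Elac2, which trims tRNA 3′ ends, had 8.39 TPM in replicate 2 and 8.48 TPM in replicate 1. Mterf1b was listed at 0 in both.

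By count ratio, 13 of 13 mitochondrial genome mRNAs were higher in replicate 2, and they summed to 11940 TPM in replicate 2 and 6753 TPM in replicate 1. mt-Co1, which encodes a core subunit of cytochrome c oxidase, had 5558 TPM in replicate 2 and 3040 TPM in replicate 1, a log2 ratio of 0.86. mt-Co3 had 2620 TPM in replicate 2 and 1903 TPM in replicate 1, and mt-Atp6, of ATP synthase, 1138 TPM in replicate 2 and 609 TPM in replicate 1. mt-Atp8 was the exception in TPM, with 136 TPM in replicate 2 and 147 TPM in replicate 1 beside 134 expected counts in replicate 2 and 43 in replicate 1. mt-Nd3 had 5.42 TPM in replicate 2 and was listed at 0 in replicate 1. The mitochondrial rRNAs, in RNA selected for polyadenylation and depleted of rRNA, summed to 38.7 TPM in replicate 2 and 21.4 TPM in replicate 1.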

How the data were processed

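Both libraries were analysed as 1 group. Per the README beside the deposited tables, expected counts per gene and transcript came from transcriptome alignments to mm10 with GENCODE M4 models. The authors deposited TPM and FPKM values, a posterior mean TPM and a posterior SD of each count (used as a score), per the file headers. The percent of its gene held by each transcript was deposited by the authors too. The deposited junction counts, on mm9, pool both libraries. The aligner is not given in the sources used here, nor is the quantifier's version.

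Symbols, transcript types and coordinates came from GENCODE M21 by unversioned ID (42462 of 43346 genes had a symbol). Rows with numeric IDs (count 0), phiX174 (0.185% of counts in replicate 2 and 0.252% in replicate 1) and spike-ins (1.12% in replicate 2 and 1.14% in replicate 1) stayed out of library sizes. Mrpl33 was not analysed here. The deposited contig table was not used here.

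Expected counts were rounded. TMM factors came from edgeR 4.0.16 and size factors from DESeq2 1.42.0 in R 4.3.3; other steps used Python 3.11.15. Ratios used a prior count of 2 and exact Clopper-Pearson intervals, which cover counting error only. GC and coding length were those of the principal coding transcript. No coordinates were converted: introns were tied to mm9 junctions of the same chromosome and strand by length and spacing, with at least 2 introns matching at 1 shift. The ratio and matching steps were tested on simulated data. No p-value was computed, since 1 group of 2 libraries has no contrast.

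Values are given for the 8 highest and 8 lowest members and the 6 highest and 6 lowest ratios at a mean TPM of 5 or more. They are also given for members past 2-fold there, members under TPM 1, the Mrps18 paralogs, Mrpl12, Mrps30, Mrpl58 and Mrps36. From each related list, values are given for up to 3 highest genes and the lowest. Members whose most abundant transcript differs or is not coding are all named, with values for some of them only. Other genes named for their junctions, partners, overlaps or promoters were chosen after their values were seen. Members and lists were chosen with earlier results of these data known.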

Additional observations from a re-analysis of the deposited data

How the results depend on the processing

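Leaving Clps and Pgc out of the TPM total raised the median of mean member TPM to 20.2, against 12.8 as reported on that measure, and the sum to 5339 TPM, against 3424. With 1 library alone the median member TPM was 13.4 to 14.4, the sum 2920 to 3928 TPM and the large over small subunit ratio 0.999 to 1.18, against 1.25 from mean TPM. On log2(TPM + 1), 6 members were past 2-fold, 0 of them higher in replicate 2; with a mean TPM of at least 5, 0 were higher. The cause was not tested, except that the TPM minimum and the pseudocount act on the scarce members, which hold those 3 higher calls. The other alternatives kept these results within the spread between libraries or within 1.5 times the count. The median log2 ratio was judged by the members' median counting error and stayed within it. These alternatives were posterior mean TPM, DESeq2 size factors, library size, prior count 0.5, TPM or FPKM minimums and the deposited isoform percentages. For the log2 ratios of single members past 2-fold, 8 settings moved a ratio by more than its counting error and 42 did not. Chosen after seeing the data, GC of the most abundant transcript gave a Spearman correlation of 0.73 with level, and read minimums of 20 and 200 gave first intron shares of 37.5% and 39.8%. No paired analysis was possible because the libraries form 1 group. Low counts, such as the 57 of Mrpl50 in replicate 2 and 12 in replicate 1, give wide intervals (1.06 to 3.01 on the log2 scale for that gene).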
